A study of Mus musculus with 26 samples.

Results

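Hematopoietic cells of the mouse choroid were taken as the cells that the authors' clustering had put in cluster 11. They were 106 of 3637 cells in the library of B6129PF1/J mice and 127 of 3928 cells in the library of C57BL/6J mice, together 233 of 7565 cells. Each library was made from the pooled RPE/choroid tissue (retinal pigment epithelium with the vascular layer beneath it) of 2 eyes, 1 from a male and 1 from a female, of mice aged 90 d that had been perfused with PBS. Live nucleated cells (Hoechst+, TO-PRO-3-) were sorted and sequenced on a droplet platform that counts the 3′ ends of transcripts with unique molecular identifiers (UMIs). C57BL/6J is an inbred strain and B6129PF1/J a first-generation hybrid of C57BL/6J with a 129 strain. With 1 library per strain, strain and library cannot be told apart and no difference between them could be tested, so levels are given as UMIs per 10,000 UMIs of the summed cells with exact Poisson 95% intervals, and shares of cells with exact Clopper-Pearson 95% intervals. These intervals cover counting error only and leave out the spread between cells and between mice. A second data set, whole RPE/choroid tissue with and without endothelial *Ihh*, is used at the end.

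The choroid is a vascular tissue with resident macrophages, dendritic cells and mast cells, and with monocytes and lymphocytes that enter from the blood. Macrophages engulf debris and make complement C1q. Conventional dendritic cells take up antigen and present it on MHC class II, and fall into a CD11b type and a CD103 type, the latter marked by the chemokine receptor XCR1. CCR2 is the receptor by which monocytes leave the bone marrow, and mast cells store proteases and histamine in granules.

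Cluster 11 held 2.91% of the B6129PF1/J cells (95% interval 2.39 to 3.51) and 3.23% of the C57BL/6J cells (2.70 to 3.84). It ranked 10th and 9th by size among the 13 clusters. Its cells gave 547283 of the 17168578 UMIs of the B6129PF1/J library and 606419 of the 15230413 of the C57BL/6J library. The median hematopoietic cell had 5048 UMIs and 1577 genes in B6129PF1/J, and 3977 UMIs and 1450 genes in C57BL/6J. The median cell of the other clusters was shallower, at 3867 and 3154 UMIs. The median mitochondrial share was 2.17% and 2.44% in cluster 11 and 3.09% and 3.02% elsewhere. The libraries shared 22 cell barcodes, and none was shared between their hematopoietic cells. Doublets had not been removed from the files: UMIs of both *Xist* and *Ddx3y*, which mark female and male cells, were found in 1 of the 106 and 2 of the 127 hematopoietic cells. This pair misses doublets of cells of the same sex and those in which either gene had no UMI, so more doublets can be present. The study's own estimate over all cells, which corrects for both, is higher.

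The label of the cluster matched its genes. Of 7 genes of all or most leukocytes (*Ptprc*, which encodes CD45, *Laptm5*, *Coro1a*, *Cd52*, *Cd53*, *Tyrobp* and *Rac2*), at least 4 were found in 100 of 106 cells in B6129PF1/J (94.3%) and in 119 of 127 cells in C57BL/6J (93.7%). No hematopoietic cell had fewer than 2 of them. Outside cluster 11, 1 cell per library had at least 4 of them, and 2.75% and 2.76% of cells had at least 1. Because the clusters were made from these same counts, every comparison of cluster 11 with the other clusters is a description and was given no test.

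The marker genes given with the cluster, *Ptprc*, *C1qa*, *Cd3e*, *Ccr2* and *Cd209a*, were all highest in cluster 11 in both libraries. Of all 16426 genes, 8.83% were highest in cluster 11 in B6129PF1/J and 9.29% in C57BL/6J, and the counts of list genes given below stand against these shares. *Ptprc* had a level of 3.43 (2.98 to 3.93) in C57BL/6J, and its UMIs were found in 72.6% of hematopoietic cells in B6129PF1/J and 66.1% in C57BL/6J. *C1qa*, a chain of complement C1q, had 15.6 (14.6 to 16.7) and 19.4 (18.3 to 20.5) UMIs per 10,000, in 36.8% and 41.7% of the cells. In the other clusters 0.708% of B6129PF1/J cells and 0.658% of C57BL/6J cells had a *C1qa* UMI, a background that holds for this gene only. Whether these UMIs came from free RNA, doublets or misplaced cells was not tested.

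*Ccr2* had 1.68 and 2.49 UMIs per 10,000 and was found in 34.9% and 34.6% of the cells. *Cd209a*, a C-type lectin of dendritic cells, had 2.43 and 2.19 UMIs per 10,000, in 20.8% and 12.6% of the cells. *Cd3e*, a chain of the T cell receptor complex, had 34 UMIs in 12 of the 106 B6129PF1/J cells and 4 UMIs in 2 of the 127 C57BL/6J cells. The ratio of levels (B6129PF1/J over C57BL/6J) lay between 0.675 for *Ccr2* and 1.11 for *Cd209a* in the first 4 markers and was 9.42 for *Cd3e*.

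**Figure D1:**
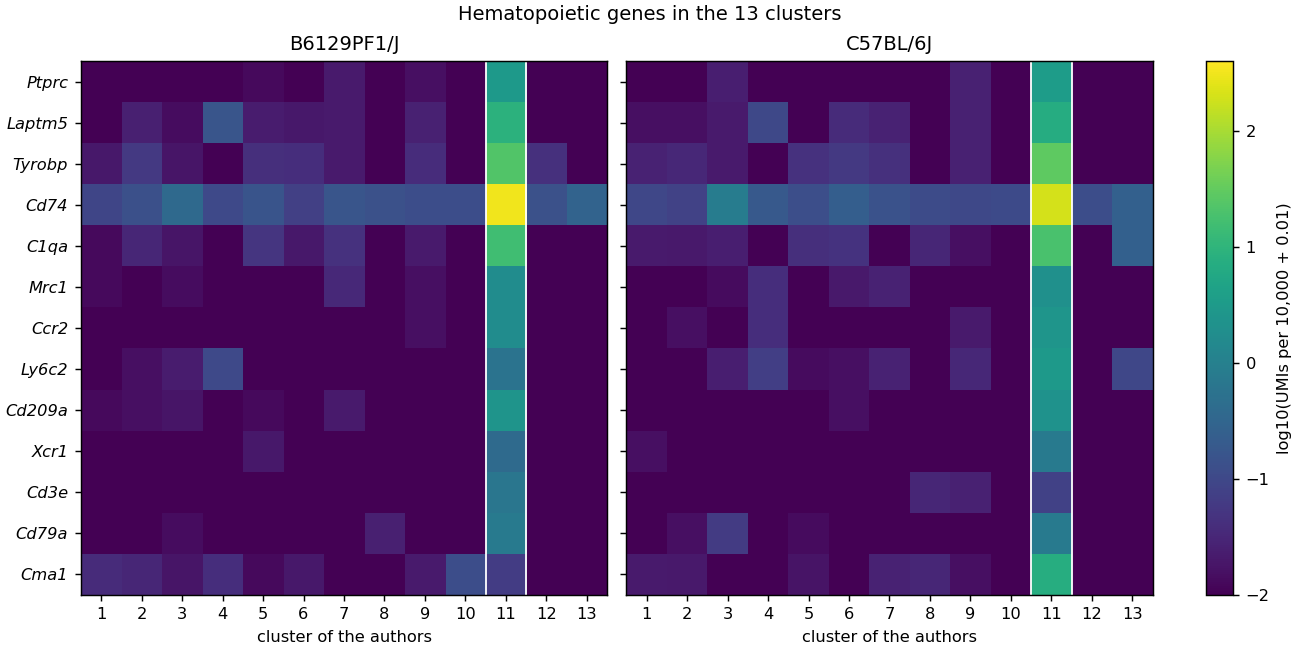
Levels of 13 hematopoietic genes (rows) in the 13 clusters (columns) of each library, as the log10 of UMIs per 10,000 summed over the cells of a cluster, with a small constant added so that 0 can be drawn. Cluster 11, between the white lines, was the brightest column for every gene in C57BL/6J, and for every gene but *Cma1* in B6129PF1/J.

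Genes of the other cell types of the tissue were at low levels in cluster 11. The 5 RPE genes summed to 14.4 UMIs per 10,000 in B6129PF1/J and 24.7 in C57BL/6J, against 1449 and 1357 in the RPE cluster. The 6 endothelial genes summed to 3.36 and 2.99, the 5 stromal genes to 4.61 and 2.49, the 5 smooth muscle and pericyte genes to 2.85 and 6.83, and the 4 Schwann genes to 0.493 and 0.610. None of the genes of these lists was highest in cluster 11. The 4 melanocyte genes (*Mlana*, *Pmel*, *Dct* and *Tyrp1*) summed to 5.79 in B6129PF1/J and 0.907 in C57BL/6J, and 1 B6129PF1/J cell held 91.0% of the *Mlana* UMIs. The photoreceptor genes *Sag* and *Gnat1* had 0 UMIs in B6129PF1/J, and 0 and 1 UMI in C57BL/6J. These cells were kept, and their part in the results below was not tested.

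*Ptprc* lies at chr1:138062861-138175708 on the minus strand of GRCm38, and the genes for the 3 C1q chains lie side by side on chromosome 4. To show sequence that the leukocyte genes share, promoter windows of 300 bases (250 before the start site and 50 after it) were read from RefSeq, build GRCm38.p6. The purine box GAGGAA, the core of sites bound by the hematopoietic factor PU.1 (encoded by *Spi1*), was searched on both strands, where it reads TTCCTC. Shown here are 2 pan-leukocyte genes, a C1q gene and 3 of the marker genes, written 5′ to 3′ on the strand of the gene, with each match in capitals. The windows are chr1:138175256-138175555 (minus strand) for *Ptprc*, chr4:130913066-130913365 (plus) for *Laptm5*, chr4:136886151-136886450 (minus) for *C1qb*, chr9:45009562-45009861 (minus) for *Cd3e*, chr9:124101933-124102232 (plus) for *Ccr2* and chr8:3748935-3749234 (minus) for *Cd209a*.
Ptprc: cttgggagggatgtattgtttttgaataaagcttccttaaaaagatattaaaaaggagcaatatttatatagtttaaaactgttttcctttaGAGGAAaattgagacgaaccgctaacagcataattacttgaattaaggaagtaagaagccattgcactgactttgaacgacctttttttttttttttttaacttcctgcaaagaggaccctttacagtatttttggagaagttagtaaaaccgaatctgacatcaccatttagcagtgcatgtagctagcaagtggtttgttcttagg
Laptm5: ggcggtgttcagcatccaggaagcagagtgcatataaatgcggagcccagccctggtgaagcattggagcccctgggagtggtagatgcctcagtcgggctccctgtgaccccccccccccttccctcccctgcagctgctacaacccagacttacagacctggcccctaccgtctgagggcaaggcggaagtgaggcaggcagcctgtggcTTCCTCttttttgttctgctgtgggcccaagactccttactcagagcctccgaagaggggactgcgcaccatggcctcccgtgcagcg
C1qb: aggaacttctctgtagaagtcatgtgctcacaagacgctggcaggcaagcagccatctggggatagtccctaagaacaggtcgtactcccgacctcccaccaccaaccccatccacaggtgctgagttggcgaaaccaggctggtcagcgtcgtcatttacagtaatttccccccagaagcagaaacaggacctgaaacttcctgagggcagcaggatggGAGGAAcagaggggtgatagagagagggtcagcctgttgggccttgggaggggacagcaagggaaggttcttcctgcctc
Cd3e: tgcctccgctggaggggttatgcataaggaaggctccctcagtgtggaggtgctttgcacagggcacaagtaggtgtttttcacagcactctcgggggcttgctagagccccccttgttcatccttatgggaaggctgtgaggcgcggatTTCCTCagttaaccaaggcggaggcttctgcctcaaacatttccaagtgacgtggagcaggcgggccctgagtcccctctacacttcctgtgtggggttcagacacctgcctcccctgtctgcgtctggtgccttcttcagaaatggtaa
Ccr2: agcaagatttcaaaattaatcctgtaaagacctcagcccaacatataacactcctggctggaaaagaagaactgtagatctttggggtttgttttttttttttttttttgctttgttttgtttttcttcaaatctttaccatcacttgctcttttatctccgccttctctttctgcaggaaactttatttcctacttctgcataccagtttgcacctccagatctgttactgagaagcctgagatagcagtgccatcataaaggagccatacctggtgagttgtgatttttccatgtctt
Cd209a: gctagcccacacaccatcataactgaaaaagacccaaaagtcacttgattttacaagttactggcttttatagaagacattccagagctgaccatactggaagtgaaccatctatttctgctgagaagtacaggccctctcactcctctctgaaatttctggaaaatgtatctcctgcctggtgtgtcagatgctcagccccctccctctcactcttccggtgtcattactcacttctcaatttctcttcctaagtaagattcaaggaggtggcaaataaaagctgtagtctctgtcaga
The match began 158 bases before the start site in *Ptprc*, 38 before it in *Laptm5*, 30 before it in *C1qb* and 100 before it in *Cd3e*. *Ccr2* and *Cd209a* had 0 matches in these windows. Over the 94 genes enriched in cluster 11 (defined next), 67 matched a RefSeq promoter and gave 78 windows, of which 39 held GAGGAA, against 28.3% of all 32851 windows. The longer GAGGAAGT, which contains it, was in 9 of the 78 windows (11.5%) and in 3.20% of all windows. For comparison, CCAAT was in 35.9% of the enriched windows and 37.4% of all, and TATAAA in 11.5% and 13.6%. A match is a string of letters and not evidence of binding.

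A gene was called enriched where, in both libraries, its level in cluster 11 reached 1 UMI per 10,000 and exceeded that of each of the remaining clusters by 5 times or more. The rule was met by 94 of 16426 genes. They made up 11.1% of the UMIs of cluster 11 in B6129PF1/J and 9.23% in C57BL/6J, against 0.0258% and 0.0320% of the UMIs of all other clusters. The median enriched gene was 127 times as high as in the next cluster in B6129PF1/J and 91.8 times in C57BL/6J. Just inside the rule were *Cd300a*, *AB124611* and *Fam49b*, with folds of 5.08, 5.10 and 5.12 in the library where the fold was lower. Just outside were *Cyth4*, *Vsir* and *Naaa*, with 4.78, 4.58 and 3.99.

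The highest enriched genes in B6129PF1/J were those of antigen presentation. *Cd74*, the invariant chain that guides MHC class II molecules to the endosome, had 324 UMIs per 10,000 in B6129PF1/J and 203 in C57BL/6J, and was found in 83.0% and 83.5% of the cells. The MHC class II chains followed in B6129PF1/J, and their levels in the 2 libraries were 118 and 69.6 for *H2-Ab1*, 113 and 63.3 for *H2-Aa*, and 98.9 and 45.4 for *H2-Eb1*. *Lyz2*, the lysozyme of myeloid cells, had 79.8 and 121, and in C57BL/6J it came next after *Cd74*, above these chains. *Tyrobp*, which encodes the signaling adaptor DAP12, had 22.3 and 28.4, and *Cd52* had 19.8 and 23.2. The class II genes were thus higher in B6129PF1/J, and *Lyz2*, *Tyrobp* and *Cd52* in C57BL/6J.

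Of the 94 genes, 45 were in the gene lists used here. Outside the lists, the 10 with the highest B6129PF1/J levels were *Alox5ap*, *Ms4a6c*, *Ptpn18*, *Unc93b1*, *Lcp1*, *Cytip*, *Fam49b*, *Plbd1*, *Lst1* and *Wfdc17*. *Alox5ap*, which encodes the protein that presents arachidonic acid to 5-lipoxygenase for leukotriene synthesis, had 5.50 UMIs per 10,000 in B6129PF1/J and 6.45 in C57BL/6J. *Unc93b1*, the chaperone of endosomal Toll-like receptors, had 4.11 and 4.24, and *Lcp1*, the leukocyte actin bundler L-plastin, had 3.80 and 4.19. *Ms4a6c* had 4.99 and 4.73, *Ptpn18* 4.51 and 4.52, *Fam49b* 3.67 and 3.84 and *Plbd1* 3.60 and 3.51. *Cytip* had 3.69 and 2.36 and *Lst1* 3.60 and 5.00. *Wfdc17* stood apart from the other 9, with 3.49 in B6129PF1/J and 10.2 in C57BL/6J.

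Most hematopoietic cells held the UMIs of exactly 1 of 9 lineage genes. These were *C1qa* for macrophages, *Cd209a* for CD11b-type dendritic cells, *Xcr1* for CD103-type dendritic cells, *Ly6c2* for monocytes, *Cd3e* for T cells, *Ncr1* for natural killer cells, *Cd79a* for B cells, *Cpa3* for mast cells and *S100a8* for neutrophils. Exactly 1 was found in 76 of 106 B6129PF1/J cells (71.7%, 62.1 to 80.0) and in 92 of 127 C57BL/6J cells (72.4%, 63.8 to 80.0). None was found in 22 (20.8%) and 24 cells (18.9%), and 2 or more in 8 (7.55%) and 11 cells (8.66%).

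By single gene, *C1qa* was found in 39 B6129PF1/J and 53 C57BL/6J cells, *Cd209a* in 22 and 16, and *Xcr1* in 10 and 9. *Ly6c2* was found in 5 cells (4.72%, 1.55 to 10.7) in B6129PF1/J and 24 (18.9%, 12.5 to 26.8) in C57BL/6J, and *Cd3e* in 12 (11.3%, 5.99 to 18.9) and 2 (1.57%, 0.191 to 5.57). The remaining genes were rare in both libraries, with *Cd79a* in 4 and 6 cells, *Ncr1* in 0 and 2, *Cpa3* in 0 and 2, and *S100a8* in 0 and 0. A count of 0 (3 counts of the total) allows a share of cells with a UMI of up to 2.83% in B6129PF1/J and 2.36% in C57BL/6J, the exact 95% limits being 3.42% and 2.86%. It says nothing of cells that express the gene without a UMI. *Ly6c2* and *Cd3e* were the 2 of the 9 genes whose intervals did not overlap between the libraries. Of the 5362 genes with at least 20 UMIs over both libraries, 1.44% had intervals that did not overlap. With every cell thinned to 1700 UMIs, or with a minimum of 2 UMIs per cell, the intervals of both genes overlapped.

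Holding a UMI depends on how deeply a cell was read. Cells with *Xcr1* had a median of 8012 UMIs in B6129PF1/J and 9001 in C57BL/6J, and cells with *Cd209a* 6352 and 6414. Cells with *Cd3e* had 2424 and 2457, and cells with *Cd79a* 2196 and 2089. Once every cell was thinned to 1700 UMIs, *C1qa* was found in 36.8% and 40.2% of cells, *Cd209a* in 15.1% and 9.45%, *Ly6c2* in 3.77% and 13.4%, and *Cd3e* in 9.43% and 1.57%. *Xcr1* went from 9.43% to 2.83% in B6129PF1/J and from 7.09% to 6.30% in C57BL/6J. The order of the libraries for *Xcr1* thus turned at equal depth. *Ccr2* went from 34.9% and 34.6% to 19.8% and 19.7%. *Ptprc* went from 72.6% and 66.1% to 33.0% and 40.2%, which also turned its order.

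**Figure D2:**
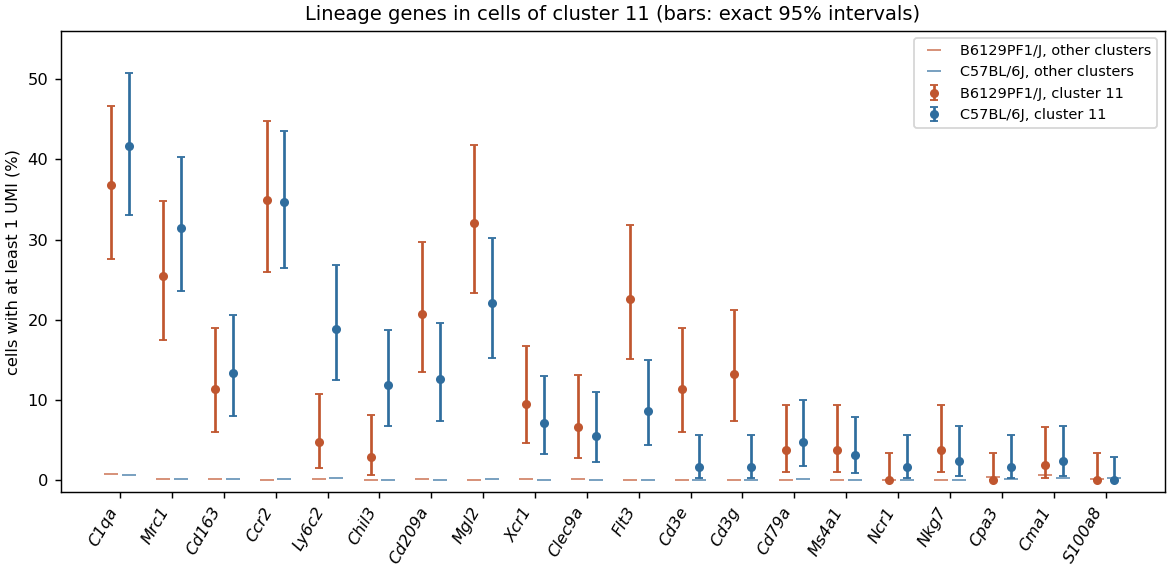
Share of hematopoietic cells with at least 1 UMI of each gene (y axis, percent), by library, with exact 95% intervals as bars and the share in all other clusters as dashes. *C1qa* and *Ccr2* were found in the most cells, and the intervals of the libraries do not overlap for *Ly6c2*, *Flt3*, *Cd3e* and *Cd3g*, of which only *Cd3g* kept this after thinning to 1700 UMIs. Over all 5362 genes compared, 1.44% had intervals that did not overlap.

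UMIs of 2 or more of the 9 lineage genes were found in 8 of 106 B6129PF1/J and 11 of 127 C57BL/6J cells. The overlap that the frequencies of these genes alone would give was not computed, so few shared cells do not show separate lineages. No cell with *C1qa* had a UMI of *Xcr1*, *Cd3e*, *Cd79a* or *Cpa3*, and no cell with *Xcr1* had *Cd209a*. *C1qa* with *Cd209a* was the most frequent pair in B6129PF1/J, in 6 cells against 3 in C57BL/6J, and *Cd209a* with *Ly6c2* in C57BL/6J, in 5 cells against 1 in B6129PF1/J. *Ccr2*, which several lineages share, was found in 17 of 22 and 14 of 16 cells with *Cd209a*, in 3 of 5 and 19 of 24 cells with *Ly6c2*, in 5 of 10 and 7 of 9 cells with *Xcr1*, and in 11 of 39 and 5 of 53 cells with *C1qa*.

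**Figure D3:**
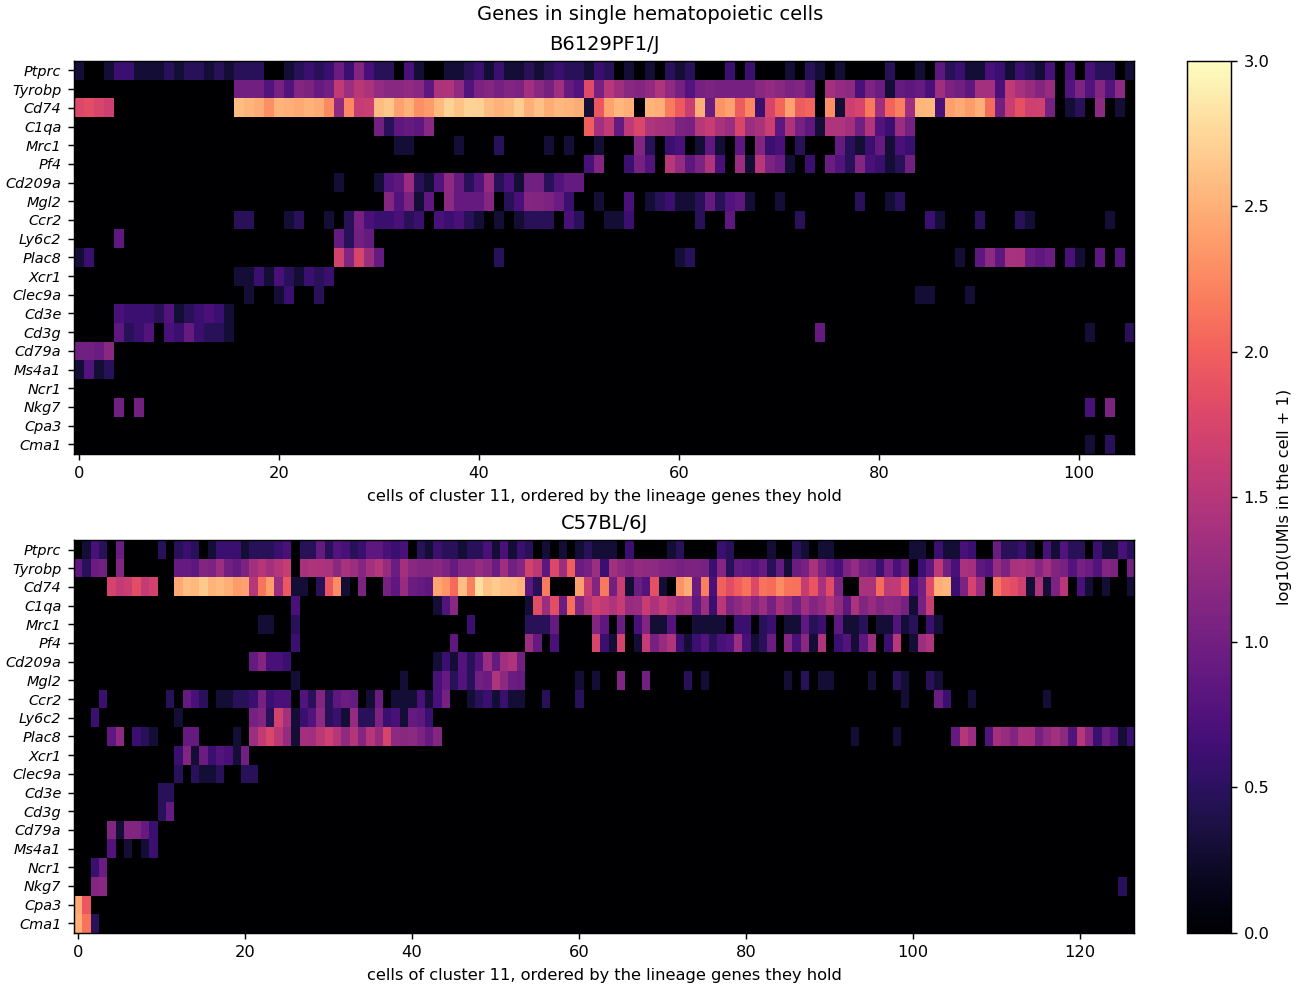
UMIs of 21 genes (rows) in every hematopoietic cell (columns) of each library, as log10(UMIs + 1), with cells ordered by the lineage genes they hold. The blocks of cells with *C1qa*, *Cd209a*, *Xcr1*, *Ly6c2*, *Cd3e* or *Cd79a* are set by this order. It also puts the 2 cells with *Cpa3* at the far left of the C57BL/6J panel.

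Most cells with *C1qa* carried other macrophage genes. *C1qb* was found in 38 of 39 and 51 of 53 of them, *Mrc1* (the mannose receptor CD206) in 23 and 36, and *Pf4* in 27 and 41. The B6129PF1/J cell without *C1qb* held 1 UMI of *C1qa* and 7 of the T cell gene *Cd3g*, and 0 of *Tyrobp* and *Cd74*. With 0 UMIs of *Cd3e*, it was counted among the cells with *C1qa* only. Their *C1qb* level was 41.5 UMIs per 10,000 in B6129PF1/J and 41.3 in C57BL/6J, and their *Csf1r* level, the receptor for the growth factor CSF1 on which macrophages depend, was 6.24 and 6.71. *Pf4*, a chemokine, had 13.2 and 21.3 in these cells and 0 UMIs in the 67 and 74 cells without *C1qa*. *Trem2*, a lipid-sensing receptor, had 4.99 and 6.67.

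*Apoe*, the lipid carrier, had 250 and 520 UMIs per 10,000 in cells with *C1qa*, but 80.7% and 78.8% of the cells outside the cluster also had a UMI of it, and its level in the RPE cluster was 116 and 157. *Cxcl2*, a neutrophil chemokine, had 36.0 and 23.9 in cells with *C1qa*, of which the median cell had 3.32 and 2.38. In each library 1 cell held much of it, 20.05% and 36.15% of the *Cxcl2* UMIs of the cluster. *Folr2* and *Lyve1*, markers of perivascular macrophages in other tissues, were rare: *Folr2* was found in 5 cells of each library, and *Lyve1* in 6 and 1. The microglial genes *Tmem119* and *P2ry12* had 6 and 11 UMIs over the whole B6129PF1/J cluster and 7 and 9 over that of C57BL/6J. *Tmem119* was higher in cluster 8, at 1.25 and 1.17 UMIs per 10,000, than in cluster 11, at 0.110 and 0.115.

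Among the cells grouped by lineage gene, those with *Cd209a* had the highest *Cd74* level, 542 UMIs per 10,000 in B6129PF1/J and 398 in C57BL/6J. They carried the lectins *Mgl2* (9.66 and 8.67) and *Clec10a* (5.18 and 2.86). *Itgam*, which encodes CD11b itself, was found in only 6 of 22 and 6 of 16 of them. Its B6129PF1/J level was 1.12 in these cells and 3.36 in cells with *Ly6c2*. *Irf4*, of the same gene list, had 0 UMIs in the B6129PF1/J cells with *Cd209a* and in all of cluster 11 of C57BL/6J. *Tnip3*, an inhibitor of NF-κB signaling, had 8.05 and 3.50. *Flt3*, the receptor of the dendritic cell growth factor, was found in 59.1% of them in B6129PF1/J and had 4 UMIs in C57BL/6J.

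Cells with *Xcr1* carried the genes of the CD103 type. *Irf8*, the transcription factor that this type needs, had 8.78 UMIs per 10,000 in B6129PF1/J and 11.6 in C57BL/6J and was found in all 10 and all 9 cells. *Naaa*, a lysosomal amidase, was also found in all of them (9.59 and 12.1). *Wdfy4*, needed for cross-presentation, had 1.96 and 2.28, and *Clec9a*, a receptor for dead cells, was found in 4 of 10 and 6 of 9. *Itgae*, which encodes CD103 itself, was found in 5 of 10 and 4 of 9. These cells and those with *Cd209a* had *Cd74* in every cell.

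Cells with *Ly6c2* had monocyte genes. *Plac8* had 51.1 UMIs per 10,000 in the 5 B6129PF1/J cells and 44.6 in the 24 C57BL/6J cells, *Lyz2* 330 and 280, and *Chil3* 5.97 and 6.39. Over the whole cluster *Plac8* had 4.90 and 14.8. 1 of the 5 B6129PF1/J cells also held *Cd3e* and had 0 UMIs of *Plac8* and *Lyz2*. Without it, a choice made after the data were seen, the ratio of *Plac8* between the libraries went from 1.15 (0.944 to 1.39) to 1.26 (1.03 to 1.52), and that of *Lyz2* from 1.18 (1.09 to 1.27) to 1.29 (1.20 to 1.39). No C57BL/6J cell was left out. There, 1 cell each with *Ly6c2* also held *C1qa*, *Xcr1* or *Ncr1*, and these had 1, 0 and 0 UMIs of *Plac8*. The changed ratios thus rest on a choice made in 1 library only.

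Cells with *Cd3e* had *Cd3g* in 11 of 12 and 2 of 2 cells. Their *Lat* level, an adaptor of T cell receptor signaling, was 5.93 and 8.14, and they had 0 UMIs of *Cd74*, *H2-Aa* and *Tyrobp* in both libraries. *Cd4* had 3 UMIs in the B6129PF1/J cells and *Cd8b1* 8 UMIs. Of the 17 T cell genes, *Trac*, *Trbc2*, *Trdc* and *Foxp3* have no row in the tables used here.

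Cells with *Cd79a* had *Ms4a1*, which encodes CD20, at 7.52 and 5.64 UMIs per 10,000 and *Cd74* at 193 and 166. In the 2 C57BL/6J cells with *Ncr1*, *Nkg7* had 53.2 and *Ccl5* 144 UMIs per 10,000, *Cd74* had 0 UMIs, and the 24 UMIs of *Gzma* were all in 1 cell. The lymphocytes thus had the shallowest cells and, apart from the B cells, no *Cd74*.

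Mast cell transcripts were concentrated in 2 cells, both from C57BL/6J. *Cpa3* (mast cell carboxypeptidase) had 288 and 84 UMIs in these cells, *Cma1* (chymase) 305 and 132, *Mcpt4* (another chymase) 330 and 103, and *Tpsb2* (tryptase) 289 and 164. *Hdc*, which makes histamine, had 3 and 16 UMIs, and *Kit*, the receptor for stem cell factor, 3 and 1. Both cells had 0 UMIs of *Cd74*. In cluster 11 of B6129PF1/J, *Cma1* had 3 UMIs, *Tpsb2* 1, and *Mcpt4* and *Cpa3* 0. Outside cluster 11, *Cma1* was found in 21 B6129PF1/J and 9 C57BL/6J cells, *Mcpt4* in 15 and 5 and *Tpsb2* in 24 and 1, in no case with over 1 UMI in a cell. No cell with many UMIs of these genes was seen among the deposited cells of the B6129PF1/J library. The study's text counts more hematopoietic cells in each strain than were deposited. Whether mast cells were among the cells left out could not be seen.

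Of the 5 neutrophil genes with a row, *Csf3r*, the receptor for G-CSF, had 13 and 16 UMIs in 10 and 12 cells, and *Cxcr2*, a chemokine receptor, 0 and 1 UMI. The other 3, *S100a8*, *S100a9* and *Retnlg*, and the globin and platelet genes *Hba-a1*, *Hba-a2* and *Ppbp* had 0 UMIs in cluster 11 of both libraries, which allows up to 0.0548 UMIs per 10,000 in B6129PF1/J and 0.0495 in C57BL/6J. The proliferation genes *Mki67* and *Top2a* had 4 and 22 UMIs in B6129PF1/J and 3 and 16 in C57BL/6J. Cells with none of the 9 lineage genes still had *Tyrobp* (26.6 and 36.6 UMIs per 10,000), *Cd74* (213 and 128), *Lyz2* (86.1 and 137) and *Plac8* (11.3 and 32.9). *Plac8* was found in 59.1% and 87.5% of them.

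Chemokine receptors were largely restricted to the cluster. All 10 on the list were highest in cluster 11 in B6129PF1/J and 9 of 10 in C57BL/6J, where *Ccr6* had 0 UMIs. *Cx3cr1*, the fractalkine receptor, had 0.968 and 1.42 UMIs per 10,000 and was found in 30.2% and 34.6% of cells, whereas *Ccr7*, by which dendritic cells reach lymph nodes, was found in 8.49% and 3.15%. Of 18 chemokines, 11 and 13 were highest in the cluster, against 8.83% and 9.29% of all genes. Found in the most cells were *Ccl6*, in 62.3% and 59.8% of cells, and *Ccl9*, in 51.9% and 44.9%.

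All 8 class II genes, and 9 of 10 (B6129PF1/J) and 10 of 10 (C57BL/6J) Fc and scavenger receptor genes, were highest in cluster 11, among them *Fcgr3* at 4.20 and 4.42. Of 10 complement genes 7 were highest there. Lysosomal genes were shared with the pigmented and stromal cells: of 12, 5 and 8 were highest in cluster 11, again against 8.83% and 9.29% of all genes. *Ctss* (cathepsin S, the class II protease) had 17.8 and 25.6 and *Ctsd* (cathepsin D) 8.77 and 17.2, against up to 34 and 30 for *Ctsd* in the RPE cluster.

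Among cytokines, *Il1b* and *Tnf*, which drive inflammation, were highest in cluster 11 in both libraries. *Il1b* had 4.44 and 2.03 UMIs per 10,000 in 37.7% and 32.3% of the cells, and *Tnf* 0.895 and 0.989 in 25.5% and 22.8%. The growth factors *Igf1* and *Vegfa* were higher elsewhere: *Igf1* had 0.731 and 2.09 in cluster 11 and 3.92 and 4.50 in cluster 6, and *Vegfa* had 1 UMI in each library. *Il4* had 0 UMIs in the deposited cells of the cluster in both, whereas the study, with more cells, reported it in mast cells. Of 8 growth factor and cytokine receptors, 7 were highest in cluster 11, with *Csf2ra*, a chain of the GM-CSF receptor, in 46.2% and 46.5% of the cells and *Il7r*, a lymphocyte receptor, in 9.43% and 3.94%. The costimulatory gene *Cd86* was found in 44.3% and 29.1% of the cells, *Cd80* in 7.55% and 3.15%. The receptors for the complement fragments C3a and C5a, *C3ar1* and *C5ar1*, were found in 25.5% and 21.7% of cells in B6129PF1/J and in 26.0% and 32.3% in C57BL/6J.

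None of the 8 Hedgehog pathway genes and none of the 10 genes that tissue dissociation induces was highest in cluster 11. *Gli1*, the target gene of the pathway, had 0 UMIs in both libraries, and *Ptch1*, the receptor, had 3 and 1 UMIs. *Fos* had 13.98 and 15.02 UMIs per 10,000 in cluster 11, against 97.2 and 112 in cluster 13.

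To compare the libraries within the cluster, a ratio of levels (B6129PF1/J over C57BL/6J) was taken for the 5362 genes with at least 20 UMIs over both libraries, with an exact conditional binomial interval. With 1 library per strain, these are differences between 2 libraries. Ratios of at least 2 were found for 147 genes (2.74% of those compared) and ratios of at most 0.5 for 430 (8.02%). The interval left out 1 for 108 of the former and 309 of the latter. The median ratio of all genes was 0.860 (-0.22 on the log2 scale), and after centring on it 233 genes were higher and 239 lower, so the share of higher genes among those past 2-fold went from 25.5% to 49.4%. Of the 94 enriched genes, 3 were higher and 2 lower by this rule, with a median ratio of 0.909, a share near that of all genes for the higher and below it for the lower.

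MHC class II genes were higher in B6129PF1/J. All 8 had ratios above 1, with a median of 1.74 (against 0.860 over all genes). *H2-Eb1* (2.18, 2.08 to 2.28) and *H2-Oa* (2.31, 1.62 to 3.35) were past 2-fold, 2 of 8 against 2.74% of all genes. *Cd74* had a ratio of 1.60 (1.56 to 1.63). Their ratios differed by the lineage gene a cell held. In cells with *C1qa* the *Cd74* levels of 323 and 166 gave a ratio of 1.94 (1.87 to 2.02). In cells with *Cd209a* the ratio was 1.36 (1.31 to 1.41), and in cells with *Xcr1* it was 0.998 (0.948 to 1.05). *H2-Aa* gave 2.25, 1.51 and 0.967 in the same order. Of the cells with *Cd209a*, 1 of 22 in B6129PF1/J and 5 of 16 in C57BL/6J also held *Ly6c2*. Without them, also chosen after the data were seen, the ratio was 1.12 (1.08 to 1.16) for *Cd74* and 1.20 (1.13 to 1.29) for *H2-Aa*. The cells themselves varied widely, since the middle 50% of the C57BL/6J cells with *C1qa* ran from 17.8 to 375 UMIs per 10,000 for *Cd74*, and that of B6129PF1/J from 125 to 527.

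T cell genes were higher in B6129PF1/J, with 7 of 8 past 2-fold (against 2.74% of all genes compared) and a median ratio of 4.55 (against 0.860). These genes share cells, with *Cd3g* in 11 of the 12 B6129PF1/J cells with *Cd3e*, so their ratios are not separate differences. *Cd3e* had a ratio of 9.42 (3.36 to 36.5), with UMIs in 12 cells against 2. Monocyte genes were mostly lower, with 4 of 7 past 2-fold (against 8.02% of all genes), 1 (*Cd14*, 2.03) higher and a median of 0.331. *Ly6c2* had a ratio of 0.185 (0.122 to 0.271) and *Plac8* 0.331 (0.288 to 0.380), against 1.16 for *Plac8* in the other clusters. Monocyte genes share cells as well, with *Chil3* in 8 of the 24 C57BL/6J cells with *Ly6c2*, so their ratios are not separate differences. Within cells with *Ly6c2*, which numbered 5 and 24, the ratio was 1.15 (0.944 to 1.39) for *Plac8* and 0.934 (0.509 to 1.61) for *Chil3*. All 5 mast cell genes compared were lower by 2-fold (against 8.02% of all genes), and rest on the 2 C57BL/6J cells described above. Without those cells 571 genes rather than 577 were past 2-fold.

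Among macrophage genes, 1 of 21 was higher and 1 lower by 2-fold (against 2.74% and 8.02% of all genes), with a median ratio of 0.806 (against 0.860). The higher one was *Lyve1* (32 UMIs against 4), and the lower one was *Apoe*, with 0.457 (0.442 to 0.472) in cluster 11 and 1.09 in the other clusters. In cells with *C1qa* the *Apoe* ratio was 0.480, the *C1qa* ratio was 0.862 (0.788 to 0.942) and that of *Il1b*, an inflammatory cytokine, was 5.17 (3.52 to 7.79). The *Il1b* ratio rests on a part of these cells, since the median cell with *C1qa* had 0 in both libraries. In B6129PF1/J 1 cell held 19.75% of the *Il1b* UMIs of the cluster. *Il1b* in all of cluster 11 had a ratio of 2.19 (1.75 to 2.74). *Ctsd* was at 0.508 and *Lipa*, the lysosomal lipase, at 0.328 (0.214 to 0.491). The 4 melanocyte genes were all higher by 2-fold in B6129PF1/J (against 2.74% of all genes), where most *Mlana* UMIs were in the cell named above. The part of that cell in the ratios of *Pmel*, *Dct* and *Tyrp1* was not tested.

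The 5 largest ratios in each direction were those of genes with 0 UMIs in 1 library. In B6129PF1/J, *BC018473* had 25 UMIs, *Smoc2* 27, *Klra17* 21, *Ctse* 20 and *Ifi202b* 20, each against 0 in C57BL/6J, so they were at least 9.23, 9.97, 7.76, 7.39 and 7.39-fold higher where 3 counts over the cluster stand for 0. The exact interval of the ratio, which allows more counts, had lower limits of 6.97, 7.57, 5.77, 5.47 and 5.47. *BC018473* and *Ifi202b*, an interferon-inducible gene, also had 26 and 17 UMIs in the other clusters of B6129PF1/J and 0 in those of C57BL/6J. All *Smoc2* UMIs were in 1 cell, while *Ctse*, which encodes cathepsin E, was found in 20 cells. Reads were aligned to mm10, which derives from C57BL/6J, and the part of the reference in these differences was not tested.

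In the other direction, *Mcpt4* had 433 UMIs, *Cpa3* 372, *Ccl24* 42, *Gzma* 24 and *Klk1* 21 in C57BL/6J against 0 in B6129PF1/J, which is at least 130, 112, 12.6, 7.22 and 6.32-fold lower by the same 3 counts. The exact upper limits of the ratio were 0.00948, 0.0110, 0.102, 0.184 and 0.213. *Mcpt4* and *Cpa3* were in 2 cells, *Gzma* in 1, *Klk1* in 3 and *Ccl24*, an eosinophil chemokine, in 5. These 5 therefore come from very few cells.

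**Figure D4:**
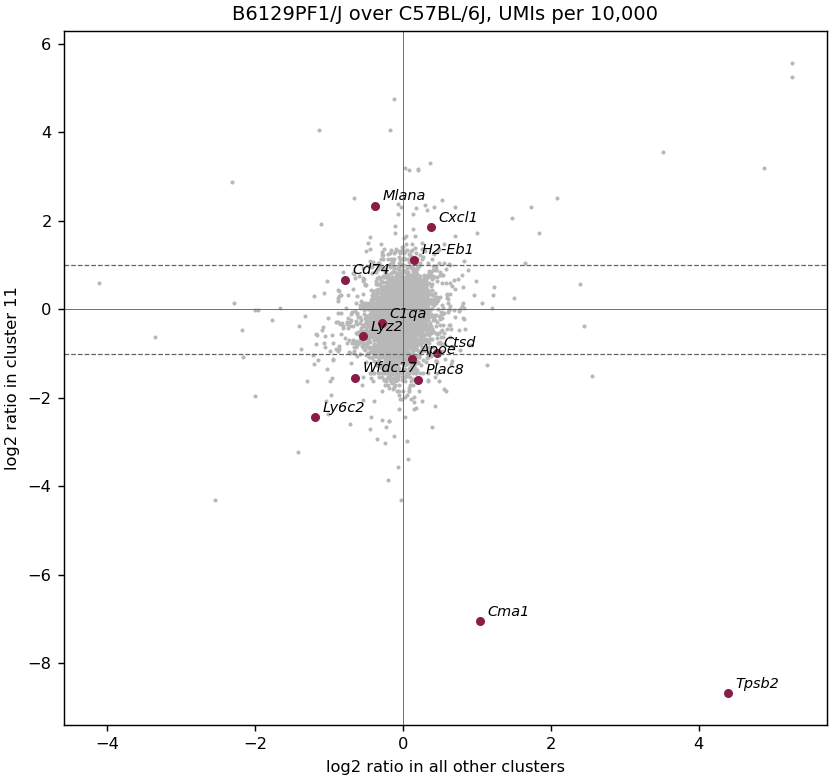
Log2 ratio of levels, B6129PF1/J over C57BL/6J, in cluster 11 (y axis) against all other clusters (x axis) for the 5100 genes with UMIs in all 4 sums and at least 20 in the other clusters. Dashed lines mark 2-fold. *Cma1* and *Tpsb2* lie far below the rest and *Cd74*, *H2-Eb1* and *Mlana* above 0, while *Apoe*, *Plac8* and *Ly6c2* are lower in B6129PF1/J.

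The second data set was of whole RPE/choroid tissue of C57BL/6J mice aged 6 months, collected 12 weeks after tamoxifen. *Ihh*, which encodes the ligand Indian hedgehog, was deleted with a Cre recombinase driven in endothelial cells (Cdh5-PAC-CreERT2, IhhiΔEC/iΔEC), and the controls (Ihh+/+) carried the same Cre and received tamoxifen too. Each group had 3 libraries, but of the values per group the table holds only the authors' mean FPKM, so no value here has an SD and no difference was tested. In bulk tissue, fewer cells of a type and less RNA per cell cannot be told apart. The targeted gene had a mean of 1.53 FPKM in controls and 0.454 after deletion (log2 ratio -1.56, with 0.1 FPKM added to each value).

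Of the 94 hematopoietic-enriched genes, 88 had a row, and their median log2 ratio was -0.12, against -0.04 over all 14743 genes with at least 0.1 FPKM. Of the 88, 64 (72.7%) were below 0, against 58.6% of all genes. Among the 79 with at least 1 FPKM, 1 had a log2 ratio of -1 or less and 0 had a ratio of 1 or more, against 0.648% and 1.03% of all 11411 such genes. *Ptprc* had 2.63 and 2.59 FPKM, *Cd74* 116 and 106, and *C1qa* 68.0 and 56.4.

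The lowest of the enriched genes were *Ccl3* (2.80 FPKM in controls, 0.899 after deletion), *Ccl4* (1.67 and 0.80), *C5ar1* (1.37 and 0.776), *Ccr2* (1.36 and 0.835) and *Pf4* (5.71 and 3.69). The highest were *Cd14* (4.37 and 7.91), *Ctss* (136 and 196), *Lyz2* (542 and 759), *Napsa* (0.997 and 1.39) and *Bcl2a1d* (1.91 and 2.44). The first set holds the chemokines *Ccl3*, *Ccl4* and *Pf4*, the receptor *Ccr2* and the receptor for complement C5a. The second holds the endotoxin receptor CD14 and the lysosomal enzymes *Ctss*, *Lyz2* and *Napsa*. Other enriched chemokines had log2 ratios of -0.24 (*Ccl5*), -0.12 (*Ccl6*), -0.06 (*Ccl9*) and -0.80 (*Cxcl2*). Medians of the whole lists were -0.09 for 16 chemokines, with 10 below 0, and 0.10 for 12 lysosomal genes, with 4 below 0. Of all genes, 58.6% were below 0.

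By lineage, mast cell genes had the lowest median of the hematopoietic lists, -1.08 over 10 genes, of which 9 were below 0, against 58.6% of all genes. *Cma1* had 1.64 FPKM in controls and 0.470 after deletion, *Mcpt4* 1.90 and 0.576, *Tpsb2* 2.34 and 0.883, and *Tpsab1* 1.07 and 0.309. *Kit*, which other cells of the tissue also express, had 3.31 and 2.97. The macrophage median was -0.34, with 15 of 20 genes below 0 (against 58.6% of all genes), from -1.22 for *Gpr34* to 1.55 for *Cbr2*. The study had already named *Gpr34*, *Cd163*, *Pf4*, *Mrc1* and *Cd72* of this list as lower in these same libraries. It had also named *Cma1*, *Mcpt4* and *Tpsb2* of the mast cell list. The medians of both lists are therefore not separate evidence of a decrease. MHC class II (-0.08), monocyte (0.07) and T cell (0.18) lists had medians nearer to that of all genes. With at least 1 FPKM, the T cell list kept 3 genes, with a median of -0.38. The macrophage list did not stand apart: medians were -0.38 for neutrophil, -0.31 for microglia and -0.27 for B and plasma cell genes. For dendritic cells they were -0.20 (CD103 type) and 0.17 (CD11b type).

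Lists of other cell types moved as well. All 6 photoreceptor genes were lower after deletion (median -1.32), all 5 RPE genes were higher (0.26), and the medians of the stromal (-0.70), melanocyte (-0.73) and endothelial (-0.26) lists were below 0. The 10 immediate early genes, which tissue handling induces, had a median of -0.75, with 7 below 0 (against 58.6% of all genes). *Fos* had 102 FPKM in controls and 32.2 after deletion, *Fosb* 19.6 and 2.27, and *Jun* 62.3 and 18.7. The 3 above 0 were *Atf3* (3.39 and 8.24), *Nfkbia* (17.5 and 24.3) and *Egr1* (102.5 and 111.5). The part of tissue makeup and of handling in the hematopoietic values was not tested.

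**Figure D5:**
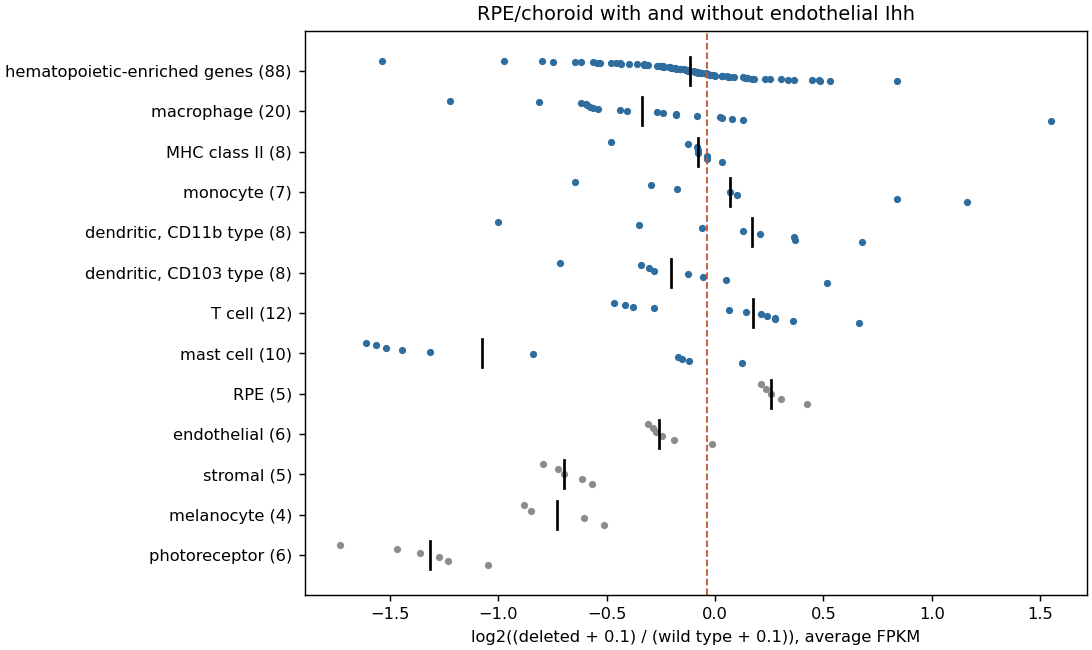
Log2 ratio of the authors' mean FPKM, deleted over control, with 0.1 FPKM added (x axis), for the genes of each list (y axis, number of genes in parentheses), with list medians as black bars and the median of all genes as a dashed line. Hematopoietic lists are in blue and other cell types in grey. The mast cell and photoreceptor lists lie farthest to the left.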

How the data were processed

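For the single cells, the authors demultiplexed, aligned (mm10) and counted UMIs with Cell Ranger, excluded shallow cells and those with many mitochondrial transcripts, and clustered cells in Seurat 2.1 after canonical correlation analysis. The deposited files hold raw UMI counts per gene and cell, a metadata table with each cell's cluster and its mitochondrial fraction, and average levels per cluster on a natural log scale. The deposited metadata list fewer cells than the study's text. The deposited cells all had over 1700 UMIs, and no cell was removed here. For the bulk tissue, the deposited table holds the authors' mean FPKM per genotype (STAR 2.4.0f1 and Cufflinks 2.0.2, per the submitters' processing notes). Its columns of log2 ratios and adjusted p-values between genotypes, made by the authors, were not used. Endothelial and cultured cell libraries of the series were not analysed here.

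Here, counts were summed over the cells of a cluster and library and divided by their total, times 10,000, with Python 3.11.15, numpy 2.4.6, scipy 1.17.1 and pandas 2.3.3. Read against the deposited averages, the recomputed levels had a median ratio of 1.02 in both libraries. The cluster was not clustered again. Lineages were described by the share of cells with a UMI of single genes, also after thinning each cell to 1700 UMIs, and no doublets were removed. Intervals were exact 95% intervals, and a count of 0 was taken to allow 3 counts. Alternatives (thinning, other minima and folds, means over cells, cells left out) are given in the closing section. The interval code was tested on simulated counts. The bulk ratio was log2((deleted + 0.1)/(control + 0.1)) for genes whose higher group reached 0.1 FPKM. The marker genes and gene lists were chosen with earlier results of these data known. Named genes were those of the lists, the 10 highest enriched genes outside them, the 5 largest library ratios each way with an interval without 1, and the 5 lowest and 5 highest bulk ratios of enriched genes at 1 FPKM or more. Some genes of the lists are not reported here.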

Additional observations from a re-analysis of the deposited data

How the results depend on the processing

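No paired analysis was possible because each strain had 1 library and the bulk table holds group means. No main value was reversed, but thinning to 1700 UMIs turned the order of the libraries for the share of cells with 2 or more lineage genes (from 7.55% and 8.66% to 5.66% and 3.94%) and with *Xcr1* (from 9.43% and 7.09% to 2.83% and 6.30%). Counting only cells with *Ptprc* lowered the share of cluster 11 to 2.12% of B6129PF1/J and 2.14% of C57BL/6J cells. Thinning to 1700 UMIs raised the share with no lineage gene to 33.96% in B6129PF1/J and lowered that with 2 or more to 3.94% in C57BL/6J, and a minimum of 2 UMIs or leaving out cells with *Xist* and *Ddx3y* moved neither share beyond its interval. Of 54 values for the 9 lineage genes under these alternatives, 1 (*Xcr1*, thinned, B6129PF1/J) moved beyond its interval, and *Ccr2* moved in both libraries when thinned and, to 25.5% and 23.6%, with 2 UMIs. The 94 enriched genes became 24 with the deposited log averages and 398 with no minimum level, and 108, 78 and 99 with a 3-fold rule, a 10-fold rule and means over cells. The 577 genes past 2-fold between the libraries became 164 (of 2731) with at least 50 UMIs, 307 (of 2469) after thinning, 712 with means over cells and, in alternatives chosen after the data were seen, 355 (of 2652) in cells with *C1qa* and 571 without cells with *Cpa3*. The bulk median ran from -0.13 to -0.09. Depth limits most the genes with few UMIs. Leaving out cells with *Ly6c2* (chosen after the data were seen) lowered the *Cd74* ratio in cells with *Cd209a* from 1.36 to 1.12.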
